A study of Mus musculus with 2 samples.

Results

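The 10 genes described here make, load and switch on the MHC class II molecules of the mouse. They are Cd74, H2-Aa, H2-Ab1, H2-Eb1, H2-DMa, H2-DMb1, H2-DMb2, Ciita, Ctss and Rfx5. All 10 had an entry in both libraries, out of 22352 gene symbols in all. They were chosen by name, with the difference between these same libraries already known, so their values are a description and carry no test. Colon epithelial cells of C57BL/6 mice gave the RNA, with 1 messenger RNA library from wild type animals and 1 from Pkm2-/- animals. Both groups had been given 2.5% DSS (dextran sulfate sodium, which damages the lining of the colon) for 3 days, and no library without DSS was analysed here. Not given in the sources used here are the number and age of the animals behind a library, and how and in which cells the Pkm2 allele was deleted. With 1 library per genotype no difference has a replicate check, and every statement compares these libraries rather than the genotypes.

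MHC class II molecules present peptides from endosomes and lysosomes to CD4+ T cells. An alpha chain and a beta chain pair in the endoplasmic reticulum around the invariant chain, which fills the groove and steers the complex to the endosome, where lysosomal proteases cut the invariant chain down. The DM heterodimer then exchanges the remaining fragment for a peptide. Professional antigen-presenting cells make these molecules all the time, whereas epithelial cells of the gut are known to switch them on under interferon-gamma through CIITA, a coactivator that does not bind DNA itself. CIITA docks on RFX, CREB and NF-Y proteins, which are made in most cells and sit on a conserved promoter module with an X box and a Y box.

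Stretches of RefSeq promoter windows (build GRCm38.p6) are shown because members that differed strongly between the libraries and close relatives that stayed low can be set side by side. Of the 10 members, 7 had a window, which ran from 250 bases before the annotated start to 50 bases after it. H2-Ab1, Cd74 and Ciita had none. Each line of class II genes is aligned on a Y box of the letters TGATTGG and starts 45 bases before it. Capitals mark those letters and, where they occur, the X box letters, spelled AGCAAC or as a 10-letter core (GNAAC followed directly by NGNTG). In the Ctss line capitals mark GAAA repeated after any 2 letters, as in interferon-stimulated response elements, and in the Rfx5 line they mark AGCAAC and the Y box on the opposite strand.
H2-Eb1 (chr17:34305761-34305827, plus strand): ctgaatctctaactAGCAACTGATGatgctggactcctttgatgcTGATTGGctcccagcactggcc
H2-Aa (chr17:34287852-34287918, minus strand): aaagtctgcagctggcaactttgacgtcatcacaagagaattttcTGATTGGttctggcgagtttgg
H2-DMb2 (chr17:34145112-34145178, plus strand): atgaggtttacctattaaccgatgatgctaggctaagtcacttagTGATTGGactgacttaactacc
H2-Ob (chr17:34238801-34238867, plus strand): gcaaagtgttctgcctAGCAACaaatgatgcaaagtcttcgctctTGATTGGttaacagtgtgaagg
H2-Eb2 (chr17:34325528-34325594, plus strand): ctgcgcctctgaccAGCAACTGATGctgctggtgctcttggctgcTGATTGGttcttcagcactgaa
Ctss (chr3:95526719-95526785, plus strand): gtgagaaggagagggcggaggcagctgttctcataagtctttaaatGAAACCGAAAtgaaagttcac
Rfx5 (chr3:94953988-94954072, plus strand): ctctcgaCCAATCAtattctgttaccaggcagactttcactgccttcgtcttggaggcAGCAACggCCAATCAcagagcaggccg

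H2-Eb1 holds the 10-letter X box core 30 bases before the Y box, and H2-Eb2 holds it at the same spacing of 30 bases. H2-DMb1, whose stretch lies partly in an annotated untranslated region and is not printed, has this core at 31 bases. The windows of H2-Aa and H2-DMb2 hold the Y box and no match to either X box spelling. That of H2-Ob holds AGCAAC 29 bases before its Y box, where AGCAAC lies 31 bases before it in H2-Eb1 and H2-Eb2. The windows of H2-DMa hold neither X box spelling nor TGATTGG. That of H2-Oa, also partly untranslated and not printed, holds AGCAAC starting 77 bases and TGATTGG starting 45 bases before the start. The Rfx5 window holds AGCAAC 62 bases before the start, between Y boxes on the opposite strand that start 113 and 54 bases before it. It holds AGCAAC again 22 bases after the start. The H2-Eb2 window also holds another X box core 249 bases and another AGCAAC 10 bases before the start, outside the printed stretch. Matches to these spellings were thus present in members and in the low relatives H2-Eb2, H2-Ob and H2-Oa, and absent from H2-DMa. A window of H2-DMa does hold the shorter Y box letters ATTGG, starting 198 bases before the start. Over all 32851 windows and both strands, the X box core was found in 3.54%, AGCAAC in 14.8%, TGATTGG in 7.82%, ATTGG in 37.4% and the repeated GAAA in 3.44%. AGCAAC can overlap the longer X box spelling, as it does in H2-Eb1. A match is a run of letters and not a measured binding site.

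The values are FPKM, which count fragments relative to transcript length and to all fragments mapped, so levels of different genes can be compared per length. The lowest values of the files give a depth of about 18800000 fragments for the wild type and 20600000 for the knockout library. A fold is the plain ratio of FPKM values, and its 95% counting interval (Clopper-Pearson, on fragments implied by that depth) covers counting error only. A log2 ratio is that of knockout FPKM + 1 over wild type FPKM + 1, which understates the difference of low genes. Counts of genes at least 2-fold apart use this log2 scale and a mean of at least 1 FPKM. Pkm, the gene the knockout targets, had 281 FPKM in wild type and 86.2 FPKM in the knockout library, a value that covers its Pkm1 and Pkm2 isoforms together.

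The chains and the invariant chain were far higher in the knockout library, where they were among its most abundant transcripts. Cd74, the invariant chain, had 32.9 FPKM in wild type and 1617 FPKM in the knockout library, 49.1-fold higher (95% counting interval 45.7 to 52.8). It ranked 2307th among all gene symbols in the wild type library and 23rd in the knockout library. H2-Aa, the alpha chain of the I-A molecule, stood at 9.95 FPKM and 648 FPKM, 65.1-fold higher in the knockout library (55.6 to 76.9). H2-Ab1, its beta chain, had 11.4 FPKM in wild type and 469.5 FPKM in the knockout library, 41.0-fold higher (35.5 to 47.6). The intervals of these chains of 1 molecule did not overlap, and the ratio of H2-Aa to H2-Ab1 was 0.870 in wild type and 1.38 in the knockout library. H2-Eb1, the beta chain of the I-E molecule, had 7.09 FPKM in wild type and 329 FPKM in the knockout library, 46.4-fold higher (40.6 to 53.3). C57BL/6 mice are known to carry a defective I-E alpha chain gene, and that gene, H2-Ea-ps, had no entry in either library. In bulk RNA such as this, more cells that express a gene and more of its RNA per cell cannot be told apart.

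Together, Cd74 and the H2-Aa, H2-Ab1 and H2-Eb1 chains summed to 61.4 FPKM in wild type and 3063 FPKM in the knockout library. That was 0.0109% and 0.574% of all FPKM of each library. The shares of Cd74 and H2-Eb1 were close between the libraries: Cd74 made up 53.6% of the sum in wild type and 52.8% in the knockout library. H2-Eb1 made up 11.5% and 10.7%, while H2-Aa made up 16.2% and 21.1% and H2-Ab1 18.6% and 15.3%.

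**Figure D1:**
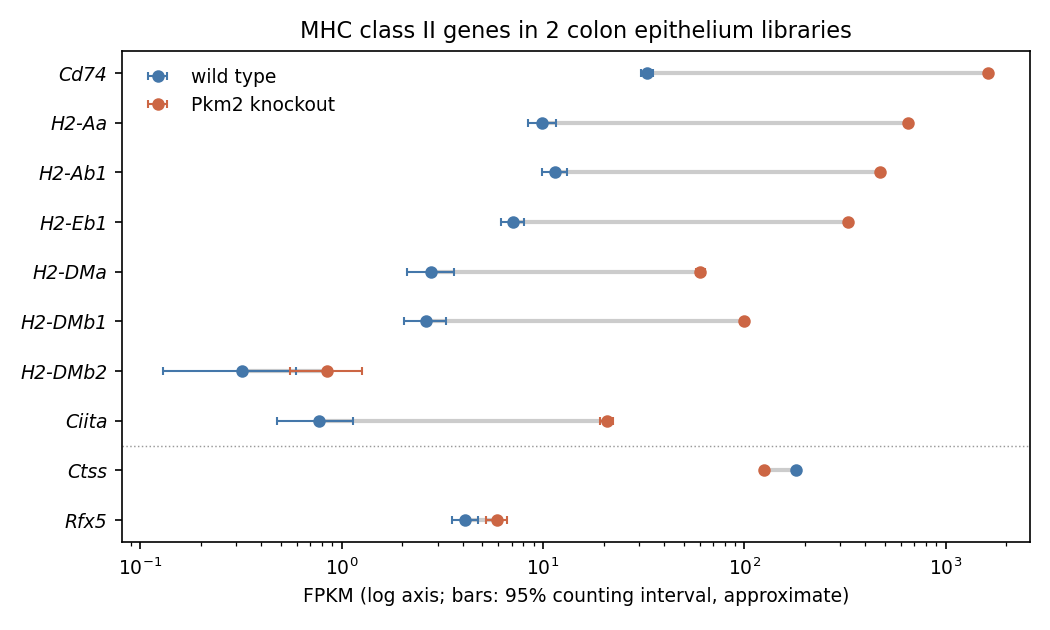
FPKM of the 10 genes (log axis) in the wild type (blue) and Pkm2 knockout (orange) library, with 1 library each and bars for the approximate 95% counting interval of each level. From Cd74 to Ciita the knockout value lies to the right, from 0.320 and 0.851 FPKM for H2-DMb2 to 32.9 and 1617 FPKM for Cd74, while Ctss, under the dotted line, lies the other way.

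The peptide exchange genes split by copy. H2-DMa, the alpha chain of DM, had 2.78 FPKM in wild type and 60.6 FPKM in the knockout library, 21.8-fold higher (16.7 to 28.8). H2-DMb1, a beta chain of DM, stood at 2.63 FPKM and 100.01 FPKM, 38.0-fold higher in the knockout library (30.1 to 49.2). The alpha and beta chain were thus level in the wild type library, with a ratio of H2-DMb1 to H2-DMa of 0.947, and 1.65 in the knockout library. H2-DMb2, the neighbouring copy of the beta chain gene, had 0.320 FPKM in wild type and 0.851 FPKM in the knockout library. That rested on about 8 and 25 fragments, a fold of 2.66 (1.24 to 7.30) against 38.0 for H2-DMb1. It was the 1 member with a mean under 1 FPKM, and its log2 ratio was 0.49. The transcripts of these copies share sequence: 37.6% of the 31-base words of H2-DMb1 also occur in H2-DMb2, so reads may have been split between them and the low H2-DMb2 value is uncertain.

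Ciita, the transactivator, was the least abundant of the members far apart between the libraries. It stood at 0.770 FPKM in the wild type, about 23 fragments, and 20.7 FPKM in the knockout library, 26.9-fold higher (18.1 to 43.5). For each FPKM of Ciita there were 14.9 FPKM of H2-Ab1 in wild type and 22.6 FPKM in the knockout library. Of the 12430 genes whose mean reached 1 FPKM, 19 had a log2 ratio as high as that of Ciita or higher, and 7 of these were members. The rule for these genes used this contrast, so that count is a description.

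Ctss and Rfx5, the parts taken as constitutive, differed by less than 1.5-fold between the libraries, in opposite directions. Ctss, cathepsin S, which cuts the invariant chain, had 181 FPKM in wild type and 125 FPKM in the knockout library, where it was 1.45-fold lower (1.38 to 1.51). It was the only member with a higher value in the wild type library, where it stood 5.51-fold above Cd74, whereas in the knockout library Cd74 stood 12.9-fold above Ctss. Its window holds the interferon response letters shown above. Rfx5, a subunit of the RFX complex, had 4.12 FPKM in wild type and 5.89 FPKM in the knockout library, 1.43-fold higher (1.18 to 1.73). Rfx5 exceeded Ciita 5.35-fold in the wild type library, and Ciita exceeded Rfx5 3.52-fold in the knockout library.

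Set side by side, 7 of the 10 members had at least 2-fold more in the knockout library on the log2 scale, where 1.42% of the 12430 genes were. No member was at least 2-fold lower, where 1.90% of the genes were. The 8 interferon-driven genes had a median log2 ratio of 5.02 and a range of 0.49 to 5.89. The constitutive pair had log2 ratios of -0.53 for Ctss and 0.43 for Rfx5, with a median of -0.05, and the medians were 5.07 apart. Over all 12430 genes the median was 0.06 and 58.8% of the ratios were above 0. Ctss and Rfx5 both lay within 2-fold, at sizes past the median size of 0.20 over all genes.

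The order of the levels differed between the libraries. In the wild type library it ran from Ctss through Cd74, H2-Ab1, H2-Aa, H2-Eb1, Rfx5, H2-DMa, H2-DMb1 and Ciita to H2-DMb2. There the counting intervals overlapped between H2-Ab1 and H2-Aa, between Rfx5 and H2-DMa, between H2-DMa and H2-DMb1, and between Ciita and H2-DMb2. In the knockout library it ran from Cd74 through H2-Aa, H2-Ab1, H2-Eb1, Ctss, H2-DMb1, H2-DMa, Ciita and Rfx5 to H2-DMb2, and no neighbours overlapped.

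Other class II genes of the region stayed near 0. H2-Oa and H2-Ob encode the chains of DO, which restrains DM and is known from B cells. H2-Oa had 0.220 FPKM in wild type and 0.117 FPKM in the knockout library, about 4 and 3 fragments. H2-Ob stood at 0.225 FPKM and 0.154 FPKM, about 7 and 5 fragments, and a difference was not detectable at this depth for either gene. H2-Eb2, a relative of H2-Eb1, had 0.0917 FPKM in wild type and 0.397 FPKM in the knockout library, about 6 and 28 fragments and 4.33-fold higher (1.73 to 12.5). The level of H2-Eb2 was thus far below the 329 FPKM of H2-Eb1, although their stretches hold the same X box letters at the same spacing.

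H2-DMa and H2-Eb1 mark the ends of a run of 11 protein-coding genes on chromosome 17, from 34119541 to 34316674 on GRCm38, of which 6 are members. The other 5 are the class I loading genes Psmb9, Tap1, Psmb8 and Tap2, and H2-Ob. Psmb9, a subunit of the immunoproteasome, had 43.4 FPKM in wild type and 138 FPKM in the knockout library, 3.19-fold higher (2.98 to 3.41). Psmb8, another such subunit, stood at 97.1 FPKM and 249 FPKM, 2.57-fold higher (2.46 to 2.68). The subunits of the peptide transporter for class I stood at 59.6 and 165 FPKM for Tap1 and at 27.2 and 42.4 FPKM for Tap2, wild type first. The log2 ratios of these neighbours ran from 0.62 for Tap2 to 1.65 for Psmb9, below the 4.80 of H2-DMb1 and the 5.24 of H2-Ab1 on either side of them. H2-Ob, between Tap2 and H2-Ab1, had a log2 ratio of -0.09. Beside the run, with an end at 34122634 that overlaps its start, Brd2, which encodes a bromodomain protein, stood at 70.5 and 76.8 FPKM. On the other side, the butyrophilin-like gene Btnl2 stood at 6.64 and 9.95 FPKM, a log2 ratio of 0.52, and Btnl1 at 32.6 and 32.2 FPKM. Cd74, Ciita, Ctss and Rfx5 lie on chromosomes 18, 16, 3 and 3.

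**Figure D2:**
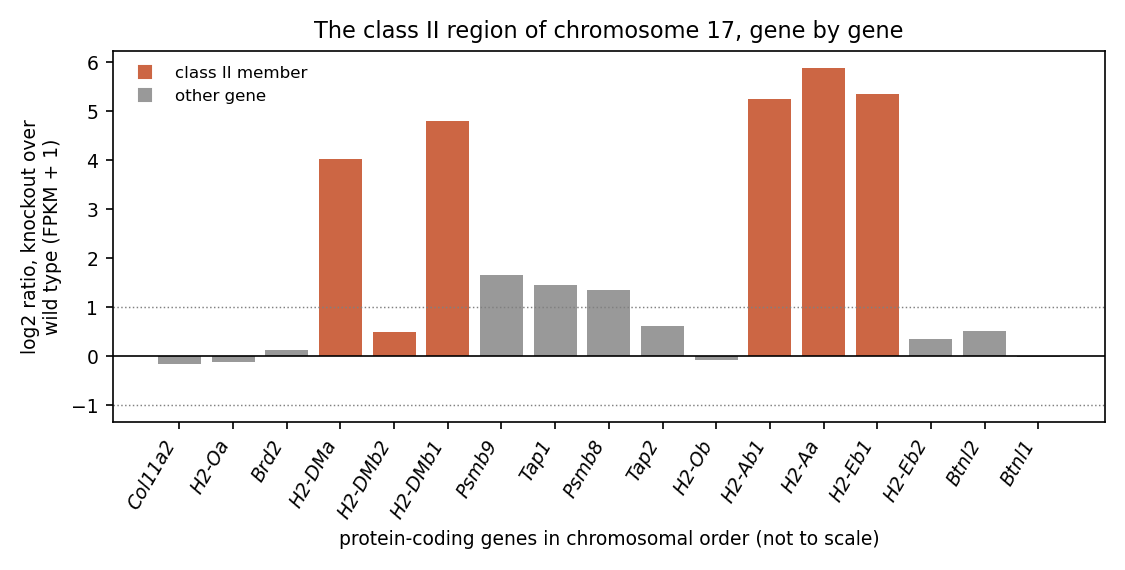
Log2 ratio of knockout over wild type FPKM + 1 for 17 protein-coding genes of the class II region of chromosome 17 in their order, with members in orange, other genes in grey and dotted lines at 2-fold. The orange bars reach 4.03 to 5.89 except for H2-DMb2 at 0.49, and the grey bars between them lie between -0.09 and 1.65.

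The proteins that bind the X and Y boxes beside RFX5 were described from a list of 7 genes. None was at least 2-fold apart, and 6 had a ratio above 0, as did 58.8% of the 12430 genes. The median log2 ratio of the 7 genes was 0.21. Rfxap and Rfxank, the other RFX subunits, stood at 7.07 and 8.33 FPKM and at 5.11 and 4.84 FPKM, wild type first. The NF-Y subunit gene Nfyc was the most abundant, at 21.05 FPKM in wild type and 25.4 FPKM in the knockout library. Atf1, a CREB relative, had the largest ratio of the list, at 12.7 and 19.4 FPKM. Of 8 coactivators that work with CIITA or with its partners, none was at least 2-fold apart either, and the median was 0.13. Smarca4, the motor of a chromatin remodelling complex, stood at 21.4 and 28.1 FPKM, and Ncoa3, a histone acetyltransferase coactivator, at 8.75 and 14.8 FPKM. All 15 genes of these lists lay within 2-fold, as did most genes: of the 12430 genes, 1.42% were at least 2-fold higher and 1.90% lower. The Ciita level differed 26.9-fold.

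Of 20 lysosomal genes 6 had a ratio above 0, where 58.8% of the 12430 genes did. Of the 20, 19 had a mean of at least 1 FPKM, none was at least 2-fold higher on the log2 scale and 1 was at least 2-fold lower. Among the 12430 genes, 1.42% were higher and 1.90% lower by this measure. Over all 20 the median log2 ratio was -0.08. The gene past 2-fold was Ctsl, cathepsin L, which cuts the invariant chain in thymic epithelium, at 41.7 FPKM in wild type and 15.2 FPKM in the knockout library. Lgmn, the asparagine endopeptidase that starts invariant chain cleavage, stood at 43.2 and 21.2 FPKM. On the plain ratio Lgmn was 2.04-fold lower (1.87 to 2.22), and so past 2-fold, as was the cathepsin gene Ctsf, at 4.23 and 2.03 FPKM, 2.08-fold lower (1.58 to 2.75). Past 2-fold the other way on the plain ratio was Cst7, whose mean was under 1 FPKM. Cst7 stood at 0.375 and 1.27 FPKM, about 7 and 26 fragments, 3.38-fold higher (1.43 to 9.23). The cathepsin gene Ctsc was also higher in the knockout library, at 42.1 and 63.4 FPKM. Sppl2a, an intramembrane protease that clears the last Cd74 fragment, stood at 155 and 103 FPKM. Ifi30, the lysosomal thiol reductase that opens disulfide bonds of antigens, stood at 102 and 84.8 FPKM. Ctsb and Ctsd, abundant cathepsins, stood at 100.2 and 100.7 FPKM and at 102 and 85.7 FPKM. Psap, the saposin precursor, was the most abundant of the list, at 206 and 250.3 FPKM. Ctss, with a log2 ratio of -0.53, lay inside the range of this list, -1.40 to 0.72.

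Of 9 genes that move class II molecules or turn them over, 8 had a mean of at least 1 FPKM and none of these was at least 2-fold apart. Few of the 12430 genes were: 1.42% were higher and 1.90% lower. Over all 9 the median log2 ratio was 0.02 and the ratios ran from -0.70 to 0.49. At the ends of that range, Arl14, a small GTPase that moves class II vesicles, stood at 12.2 and 7.13 FPKM, 1.72-fold lower (1.42 to 2.09), and Ap1m1, an adaptor subunit, at 6.83 and 9.998 FPKM, 1.46-fold higher (1.25 to 1.71). March8, a ubiquitin ligase that can remove class II from the surface, stood at 25.9 and 26.8 FPKM, wild type first. March1, the ligase of dendritic and B cells, stood at 0.0869 and 0.164 FPKM, about 4 and 9 fragments. Cd63, a tetraspanin of late endosomes, was the most abundant of them, at 391 and 349 FPKM.

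**Figure D3:**
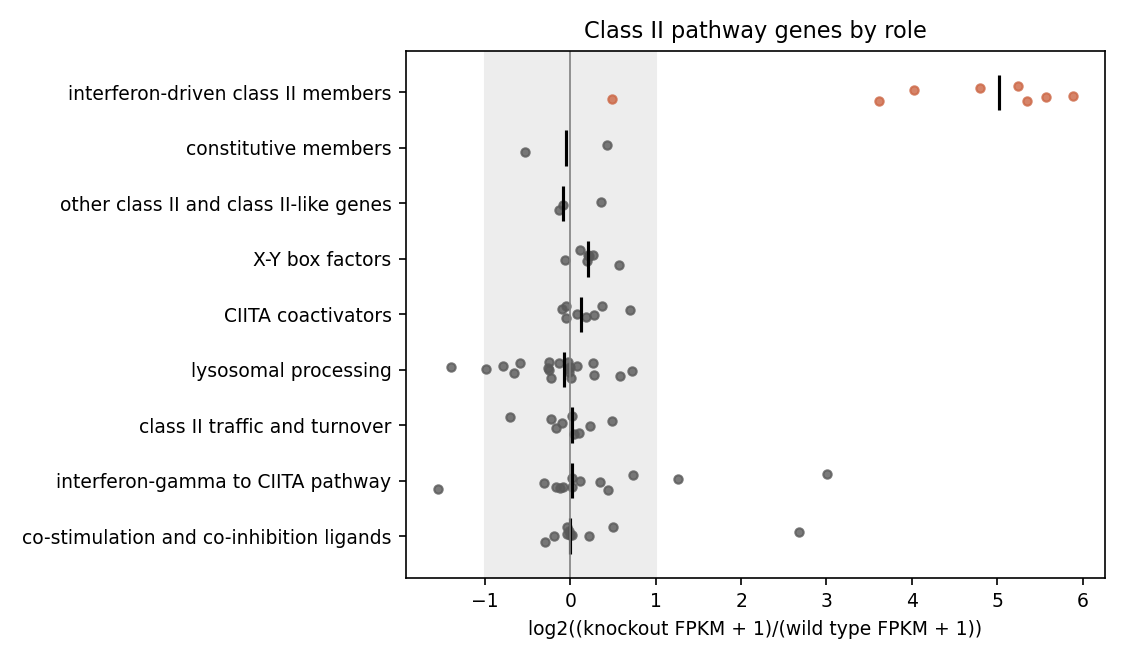
Log2 ratio of knockout over wild type FPKM + 1 for each listed gene of 9 groups by role, with each point 1 gene, the black line the group's median and the grey band a difference under 2-fold. The interferon-driven members lie between 3.62 and 5.89 with H2-DMb2 at 0.49, while the medians of the other groups lie between -0.09 and 0.21.

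The pathway that leads from interferon-gamma to CIITA was described from 13 genes, of which 11 had a mean of at least 1 FPKM. In the knockout library 2 of them were at least 2-fold higher and 1 was at least 2-fold lower, with a median log2 ratio of 0.02. Over the 12430 genes the shares were 1.42% higher and 1.90% lower. Ifng itself had no entry in the wild type library and stood at 0.667 FPKM in the knockout library, about 17 fragments. The receptor chains Ifngr1 and Ifngr2 stood at 82.0 and 65.8 FPKM and at 29.1 and 27.3 FPKM, wild type first. The kinase genes Jak1 and Jak2 stood at 27.3 and 27.7 FPKM and at 17.7 and 15.6 FPKM. Irf1, a transcription factor that acts on the Ciita promoter, was 2.41-fold higher, at 103 and 247 FPKM. Socs1, a feedback inhibitor of the kinases, was 8.77-fold higher, at 10.04 and 88.02 FPKM. Socs3, an inhibitor known mostly from cytokines of the IL-6 family, was lower, at 24.3 and 7.63 FPKM. The fold of Ciita, 26.9, was thus above that of every listed gene of the pathway that had a value above 0 in both libraries.

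T cells need further signals beside class II, and ligands for those were described too. Of 11 such genes 10 were listed and 5 had a mean of at least 1 FPKM, and of these Icam1 alone was at least 2-fold apart. Over the 12430 genes the shares were 1.42% higher and 1.90% lower. Icam1, an adhesion molecule, had 1.15 FPKM in wild type and 12.7 FPKM in the knockout library, 11.1-fold higher. Cd86, a classical co-stimulator, stood at 0.120 and 0.109 FPKM, about 6 fragments in each library. Cd40, which answers CD4+ T cells, stood at 0.0487 and 0.220 FPKM, about 1 and 3 fragments, and Cd80 was listed at 0.0311 FPKM in the wild type library alone. Lgals9, a galectin, was the most abundant of the list, at 302 FPKM in both libraries. Cd274, the inhibitory ligand PD-L1, stood at 8.07 and 8.18 FPKM.

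Class II genes are also made by immune cells that a preparation of epithelium can hold, so markers of those cells were measured. The epithelial markers were high, with a sum of 6869 FPKM over 10 genes in wild type and 7915 FPKM in the knockout library. All 9 B cell markers were below 1 FPKM in both libraries, with a sum of 0.573 and 1.05 FPKM, 1.84-fold higher. Of these 9, 6 had a ratio above 0, where 58.8% of the 12430 genes did. Among them Ms4a1 stood at 0.0985 and 0.310 FPKM, and Fcer2a had no entry in the wild type library. Of 10 dendritic cell markers 9 were listed, with a sum of 1.11 and 2.99 FPKM, 2.69-fold higher, and 7 of these had a ratio above 0. Itgax, at 0.355 and 1.71 FPKM, 4.82-fold higher (2.27 to 12.0), made up most of the knockout sum. It was the only dendritic cell marker whose mean reached 1 FPKM, and it was at least 2-fold higher on the log2 scale. Cd209a had no entry in either library. The 13 macrophage and monocyte markers summed to 34.8 and 35.9 FPKM, most of it Cd14, at 26.7 and 24.1 FPKM, and Cd163 had no entry in the knockout library. Of these 13 markers 9 had a ratio above 0, with a median log2 ratio of 0.20 over all 13 and -0.04 over the 5 whose mean reached 1 FPKM. The complement genes C1qb and C1qc stood at 0.619 and 1.78 FPKM, 2.87-fold higher (1.47 to 5.71), and at 0.433 and 1.27 FPKM, 2.94-fold higher (1.40 to 6.64). The chemokine receptor gene Ccr2 stood at 0.175 and 0.697 FPKM, 3.99-fold higher (1.87 to 11.5), and Cx3cr1 at 0.0264 and 0.267 FPKM, about 2 and 17 fragments. Lyz2, a lysozyme gene, stood at 2.97 and 2.74 FPKM. Over the same comparison the 8 interferon-driven genes summed to 67.9 and 3245 FPKM, 47.8-fold higher.

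T and NK cell markers and pan-leukocyte markers were also higher in the knockout library. All 14 T and NK cell markers had a ratio above 0, as did 58.8% of the 12430 genes. Of the 9 whose mean reached 1 FPKM, 7 were at least 2-fold higher on the log2 scale, where 1.42% of the 12430 genes were, and all 9 were on the plain ratio. The 14 markers had a sum of 20.9 FPKM in wild type and 90.6 FPKM in the knockout library, 4.33-fold higher. The granule protease gene Gzma was the most abundant of them in the knockout library, at 3.34 and 25.03 FPKM, and Ifng had no entry in the wild type library. The 5 pan-leukocyte markers summed to 19.1 and 50.4 FPKM, 2.64-fold higher, with Ptprc, the leukocyte antigen CD45, at 5.94 and 16.1 FPKM. For each FPKM of Ptprc there were 1.93 FPKM of H2-Ab1 in wild type and 29.1 FPKM in the knockout library. Of 5 markers of group 3 innate lymphoid cells, which can carry class II, Il22 and Il23r were listed in neither library. The sum of the others was 22.6 and 22.2 FPKM, most of it Kit, also expressed by other cells, at 18.4 and 18.8 FPKM. Endothelial markers summed to 0.534 and 0.387 FPKM and fibroblast markers to 4.34 and 1.35 FPKM, with Tie1 and Lum listed in neither library. The part of immune cells in the class II values was not tested.

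**Figure D4:**
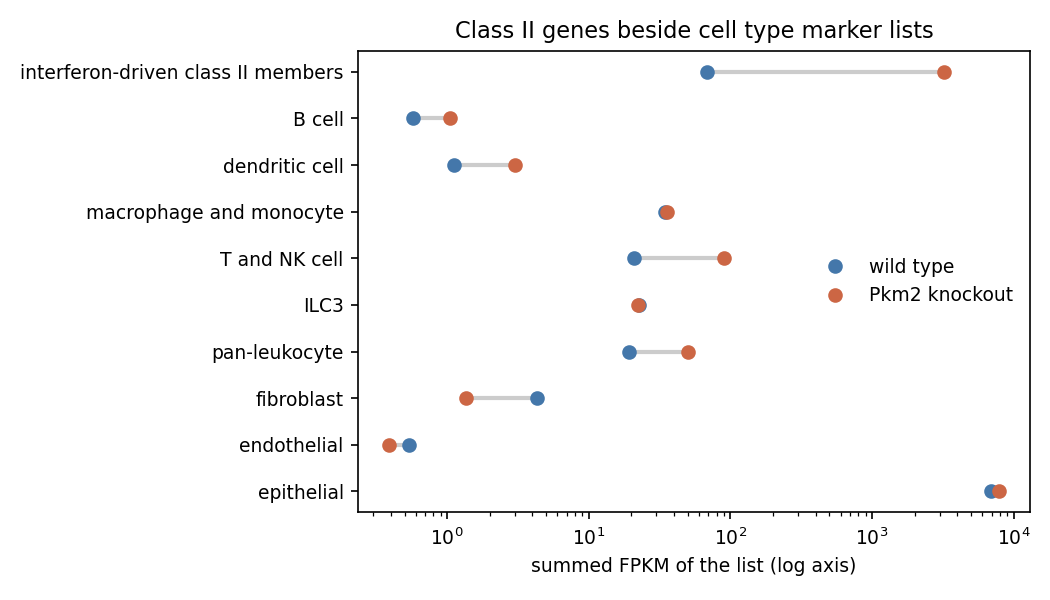
Summed FPKM (log axis) of the 8 interferon-driven class II genes and of 9 marker lists in the wild type (blue) and knockout (orange) library. The class II sum goes from 67.9 to 3245 FPKM and the T and NK cell sum from 20.9 to 90.6 FPKM. The B cell sum goes from 0.573 to 1.05 FPKM and the dendritic cell sum from 1.11 to 2.99 FPKM.

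The genes whose ratio lay nearest to the median of the interferon-driven genes, over these 2 libraries and outside the members, were F830016B08Rik, Gm4841, Tgtp1, BC023105 and Iigp1. F830016B08Rik had 0.368 FPKM in wild type and 39.6 FPKM in the knockout library. Gm4841 stood at 0.544 and 55.5 FPKM and BC023105 at 1.06 and 53.1 FPKM. Iigp1, an immunity-related GTPase, stood at 14.8 and 408 FPKM, and Tgtp1, another GTPase of this kind with a near-identical copy that makes its value uncertain, at 7.88 and 246 FPKM. Their log2 ratios ran from 4.70 to 5.19.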

How the data were processed

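The deposited values were FPKM made by the authors, 1 per Ensembl gene with a symbol and a locus, in files without a header. The unit rests on the values and on the submitters' processing notes, which name Bowtie2 2.2.9, TopHat2 2.1.1, Cufflinks 2.2.1, Cuffdiff 1.3.0 and 2.2.1 and build mm8. The files' loci match GRCm38 instead: 99.4% of 22384 gene IDs were in GENCODE M21 and 99.96% of those overlapped the gene, so GRCm38 coordinates are used. How fragments were assigned to strands is not given in the sources used here. FPKM divides by length and by the mapped total, and near-identical copies can be split wrongly.

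Rows that share a symbol were summed, an unlisted gene was taken as 0 although it need not be unexpressed, and 23 gene symbols stored as calendar dates were restored by gene ID. Log2 ratios used a pseudocount of 1 FPKM. Genes entered counts at a mean of at least 1 FPKM and a threshold of 2-fold. No test was made, since each genotype had 1 library.

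Depth came from the lowest values in genes with 1 transcript above 1.5 kb, which cluster at 0.0533 FPKM times kb in the wild type (351 genes) and 0.0485 in the knockout library (346 genes). Fragments of a gene used its shortest protein-coding transcript in the GENCODE basic set, with no filter for full length. For genes with a short transcript, such as Ciita (1620 bases) and Cd40 (668 bases), fragment counts can thus be too low and intervals too wide. The steps were tested on simulated data. Calculations used Python 3.11.15, pandas 2.3.3, numpy 2.4.6 and scipy 1.17.1.

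The members, the lists and the split into interferon-driven and constitutive genes were chosen with earlier results of these data known. The text names all members, chromosome 17 neighbours, and the 5 genes nearest in ratio. From most lists it names some of the most abundant genes or of those with the largest ratios, but not all of them. No gene of the epithelial list is named. In larger lists, further genes, such as Sppl2a, Ifi30, Ctsd, Ctsf, Cd86, March1, C1qc and Ccr2, were named for their known role after their values were seen, and so were the letters TGATTGG. A few genes of these lists are not reported here and were left out of their counts and sums.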

Additional observations from a re-analysis of the deposited data

How the results depend on the processing

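No paired analysis was possible because each genotype had 1 library, and no library could be left out for the same reason. The count of 7 members at least 2-fold higher stayed at 7 with a pseudocount of 5 FPKM, thresholds of 1.5-fold and 4-fold, other filters and 3 rescalings, and was 8, with H2-DMb2, at a pseudocount of 0.1 FPKM. The median log2 ratio of the interferon-driven genes was 4.29 with a pseudocount of 5 FPKM and 4.37 as a mean over members. Genes at least 2-fold higher, 176 as reported, numbered 272 with a pseudocount of 0.1 FPKM, 85 with 5 FPKM and 111 at a mean of at least 5 FPKM. Genes at least 2-fold lower, 236 as reported, numbered 361, 124 and 154 under the same settings. A larger pseudocount shrinks log2 ratios and a higher filter leaves fewer genes to count, so these counts depend on the settings. With equal library medians the split was 147 higher and 276 lower. No member changed direction under the settings run: Ctss ranged from -0.61 to -0.48, Rfx5 from 0.26 to 0.51, Ciita from 2.16 to 4.58 and H2-DMb2, which has no value at a mean of at least 5 FPKM, from 0.14 to 1.18. Depth limits H2-Oa, H2-Ob, H2-DMb2 and wild type Ciita, which rest on few fragments at the transcript lengths used.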

Other observations

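The 10-letter X box core and the Y box letters TGATTGG were looked for as a pair in all 32851 promoter windows, 20 to 40 bases apart on 1 strand, a spacing chosen after the class II windows were seen. The pair occurred in 4 genes, H2-Eb1, H2-Eb2, H2-DMb1 and BC051142, all on chromosome 17. BC051142, a gene beyond Btnl1 whose window starts at 34398570 on GRCm38.p6, had the letters 31 bases apart and had 0.942 FPKM in wild type and 2.33 FPKM in the knockout library. The genes with the pair thus spanned levels from 0.397 FPKM for H2-Eb2 to 329 FPKM for H2-Eb1 in the knockout library.

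Entries antisense to genes of the region were low. Gm20513, antisense to H2-Eb1, was listed at 0.248 FPKM in the knockout library alone. Gm15821, which overlaps Tap2, had 0.864 FPKM in wild type and 1.51 FPKM in the knockout library, and Gm20496, over Psmb8 and Tap2, at 0.761 and 1.61 FPKM. Without strand information, reads of these entries and of the genes they overlap cannot be told apart.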
